A study of Mus musculus with 10 samples.

Results

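The chemokines and chemokine receptors measured in these livers were 56 of the 19938 genes tested, 34 ligands and 22 receptors, chosen by gene symbol. Chemokines are small secreted proteins that direct the migration of leukocytes, and their receptors are G protein-coupled receptors of the cell surface. The family is divided by the spacing of the first cysteines into CC, CXC, CX3C and XC chemokines, and the receptors are named after the class they bind. Atypical receptors bind chemokines without classical G protein signalling and remove them from tissue. In the liver, macrophages, lymphocytes, endothelial cells, stellate cells and hepatocytes make chemokines, which attract monocytes, T cells, NK cells and neutrophils from the blood.

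Expression of this family was examined in the liver of 5 male C57BL/6J mice injected with an adenovirus encoding Phf2, a histone demethylase that erases H3K9me2 marks, and of 5 male C57BL/6J mice injected with an adenovirus encoding GFP. Both viruses were given by tail vein at 8 weeks of age, and the livers were taken in the fed state 3 weeks later, with 1 Affymetrix Gene ST array per mouse. All mice carried an adenovirus and no uninfected group is part of the comparison. The sources used here do not name the promoter of either transgene. Genes were chosen by name, as rows with a single symbol that begins with Ccl, Cxcl, Ccr or Cxcr and a digit, together with Xcl1, Xcr1, Cx3cl1, Cx3cr1 and Ackr1 to Ackr4. For each gene the row with the highest mean over the 10 arrays was used. The genes of the Ccl21 and Ccl27 families were not analysed here as single genes.

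Array medians lay between 5.06 and 5.18 on the log2 scale. The hepatocyte marker Alb lay at 12.59 or above on every array. Phf2 itself lay between 6.27 and 6.58 on the Phf2 arrays and between 6.32 and 6.54 on the GFP arrays (log2 fold change -0.05 ± 0.08 SE, limma adjusted p = 0.751, where SE is the standard error). The sources used here do not say if that feature detects the transgene, and the group labels were not checked by it. Arrays also differed in transcripts of the exocrine pancreas. The mean of 11 pancreatic enzyme genes lay at 5.72, 10.50, 9.80, 8.52 and 5.96 on Phf2 arrays 1 to 5 and at 12.08, 8.18, 6.79, 5.99 and 7.57 on GFP arrays 1 to 5, and 0 of these 11 genes passed the test (0 at an unadjusted p of 0.05 and 0 by the methods' t-test).

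Of the 56 genes, 5 were higher in Phf2 livers than in GFP livers and 3 were lower at an adjusted p of 0.05 (limma, Benjamini-Hochberg over all genes), and 48 did not pass the test. The higher genes were the ligands Ccl5 and Ccl3 and the receptors Cxcr4, Cx3cr1 and Ccr2. The lower genes were the ligands Cxcl13, Ccl9 and Cxcl12. The 8 called genes are 14.3% of the family, against 9.67% of all genes tested, of which 5.43% were higher and 4.24% lower. A positive log2 fold change, Phf2 minus GFP, was found for 37 of 56 members (66.1%) and for 45.3% of all genes. The median log2 fold change was 0.10 for the family and -0.01 for all genes. At a fold of 1.5 and an unadjusted p of 0.05, 9 members differed, 8 higher and 1 lower, which is 16.1% of the family against 3.54% of all genes. The groups did not overlap for 8 members (14.3%, against 9.08% of all genes). An unadjusted p under 0.05 alone was met by 21 of the 56 members and by 22.2% of all genes. Counts at that threshold in the lists below are to be read beside this share. For 27 members the mean over the arrays lay below 5.12, the median over all rows of the table, and fold changes at such low signal are less certain.

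**Figure D1:**
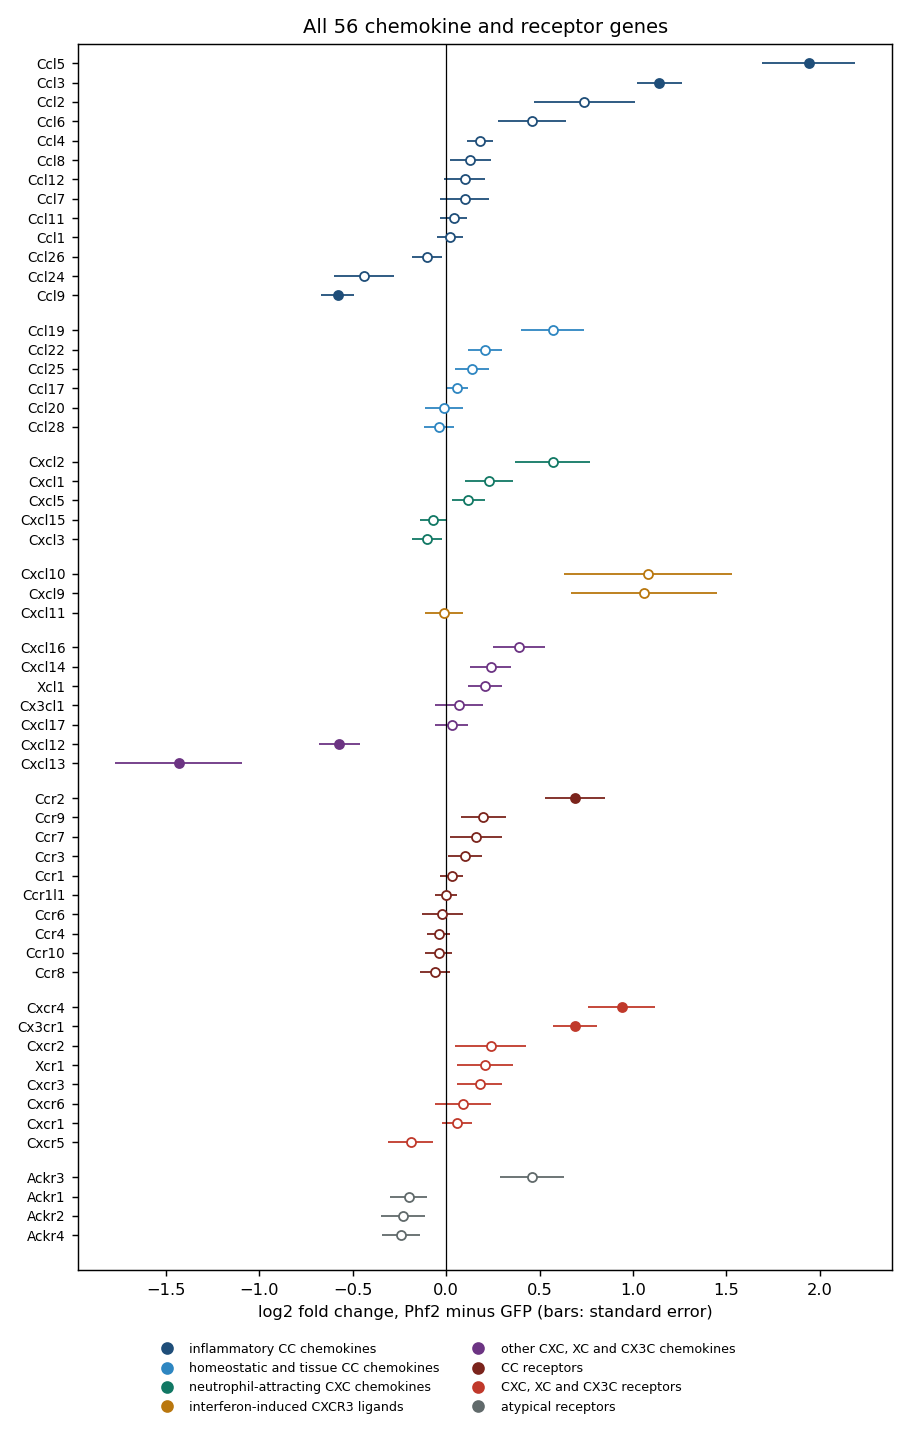
Log2 fold change (Phf2 minus GFP, horizontal axis) of all 56 chemokine and receptor genes, ordered by role. Bars are standard errors from limma, filled points passed an adjusted p of 0.05 and open points did not, with Ccl5 at 1.94 and Cxcl13 at -1.43 as the extremes.

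The largest change was seen for Ccl5, which T cells, NK cells and macrophages secrete and which attracts T cells and monocytes. Ccl5 lay at 8.83, 9.13, 9.50, 9.81 and 8.46 on the log2 scale in Phf2 livers 1 to 5, against 6.57, 7.07, 7.54, 7.46 and 7.38 in GFP livers 1 to 5. Every Phf2 liver lay above every GFP liver, with a gap of nearly a log2 unit. The means were 9.14 ± 0.53 in Phf2 livers and 7.21 ± 0.40 in GFP livers (SD, n = 5 each), a 3.83-fold rise (log2 fold change 1.94 ± 0.25 SE, limma adjusted p = 0.000392). The two-sided exact permutation test gave p = 0.00794, the smallest value that 5 against 5 arrays allow. Ccl3, a ligand of Ccr1 made by activated macrophages and lymphocytes, read 5.43, 5.63, 5.98, 5.82 and 5.67 in Phf2 livers, against 4.38, 4.94, 4.56, 4.39 and 4.57 in GFP livers. The groups were again apart, and Ccl3 rose 2.20-fold (log2 fold change 1.14 ± 0.12 SE, adjusted p = 0.000107). Every GFP value of Ccl3 lay below 5.12, the median over all rows, so that the size of this fold is less certain.

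Both genes lie in a run of CC chemokine genes on chromosome 11, in the order Ccl5, Ccl9, Ccl6, Ccl3 and Ccl4, and the other 3 genes were not called higher. Ccl9, which acts through Ccr1 in the mouse, fell by 0.58 ± 0.09 SE in log2 units (adjusted p = 0.00123). It read 8.10, 8.09, 8.00, 8.12 and 7.94 in Phf2 livers, against 8.59, 8.84, 8.52, 8.40 and 8.78 in GFP livers, so that every Phf2 liver lay below every GFP liver. Ccl6, another mouse ligand of Ccr1, lay at 6.89, 7.46, 7.82, 7.79 and 6.92 in Phf2 livers, against 6.78, 7.11, 6.93, 6.94 and 6.81 in GFP livers. Only Phf2 livers 2, 3 and 4 stood above all GFP livers for Ccl6, and the difference did not pass the test (log2 fold change 0.46 ± 0.18 SE, adjusted p = 0.135). Without Phf2 replicate 1 or 5 it passed, at adjusted p = 0.0453 and 0.0479 (0.0453 to 0.659 over all alternatives). Ccl4, the close relative of Ccl3 at its side, differed little. It read 5.99, 5.83, 6.09, 5.85 and 5.83 in Phf2 livers, against 5.73, 5.64, 5.74, 5.81 and 5.78 in GFP livers. The groups did not overlap (exact permutation p = 0.00794), but the difference of 0.18 ± 0.07 SE had an adjusted p of 0.137.

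The upstream sequences of Ccl3 and Ccl9 are shown as the promoters of neighbours on chromosome 11 that moved in opposite directions. Each is the 250 bases before the RefSeq start site in assembly GRCm38.p6, written 5′ to 3′ on the strand of the gene. Capitals mark letters that match GGG and CC with any 5 bases between them (κB, the site class of NF-κB), GAAA and GAAA with any 2 bases between them (ISRE, the interferon-stimulated response element) or TGACNNNGC (ARE, the antioxidant response element) on either strand. CACGTG (E-box) was also searched and was in none of the sequences shown here. Ccl5 is named only.
Ccl3, chr11:83649379-83649628, minus strand: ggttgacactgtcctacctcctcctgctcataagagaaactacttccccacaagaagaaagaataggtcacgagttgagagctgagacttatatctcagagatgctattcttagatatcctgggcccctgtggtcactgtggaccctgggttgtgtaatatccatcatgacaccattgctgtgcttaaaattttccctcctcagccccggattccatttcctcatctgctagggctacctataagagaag
Ccl9, chr11:83578637-83578886, minus strand: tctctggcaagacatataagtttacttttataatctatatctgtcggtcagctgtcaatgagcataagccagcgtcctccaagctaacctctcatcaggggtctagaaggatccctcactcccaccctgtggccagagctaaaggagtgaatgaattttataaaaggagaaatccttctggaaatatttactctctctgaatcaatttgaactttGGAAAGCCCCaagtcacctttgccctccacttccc
The Ccl3 window held none of these motifs and the Ccl9 window held 1 κB match, at -35 to -26 from the start site. RefSeq windows were found for 42 of the 56 members. The κB letters were in 25 of these 42 genes (59.5%) and in 48.7% of all genes with a window (45.8% of all windows), so that a match is common. ISRE letters were in 3 of the 42 genes (7.1%, against 3.5% of all genes and 3.0% of all windows), the E-box in 2 (4.8%, against 6.9% and 6.0%) and ARE letters in 4 (9.5%, against 11.5% and 10.2%).

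The other inflammatory CC chemokines did not pass the test. Of the 13 genes of this class, 2 were higher, 1 was lower and 10 were not called, with a median log2 fold change of 0.10. Ccl2, the main attractant of monocytes and a ligand of Ccr2, lay at 5.33, 6.36, 6.76, 6.55 and 5.64 in Phf2 livers, against 5.07, 5.31, 6.07, 5.20 and 5.30 in GFP livers. The groups overlapped, since GFP liver 3 stood well above the other GFP livers while Phf2 livers 1 and 5 stood low (log2 fold change 0.74 ± 0.27 SE, adjusted p = 0.114). Ccl2 passed without GFP replicate 3 (adjusted p = 0.0463) or Phf2 replicate 1 (0.0288), with 0.0253 to 0.657 over all alternatives. Ccl24, an eosinophil attractant that macrophages make, read 5.34, 5.73, 6.33, 5.87 and 5.55 in Phf2 livers, against 5.95, 6.27, 6.53, 6.07 and 6.18 in GFP livers. Phf2 liver 3 overlapped with the GFP livers, and the log2 fold change of -0.44 ± 0.16 SE had an adjusted p of 0.129, and of 0.0184 without Phf2 replicate 3 (0.0184 to 0.248 over all alternatives). The other genes of the class, Ccl1, Ccl7, Ccl8, Ccl11, Ccl12 and Ccl26, had log2 fold changes between -0.10 and 0.13.

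Interferon induces 3 CXC ligands that attract T cells and NK cells through Cxcr3, of which Cxcl9 and Cxcl10 differed widely among the GFP livers. Cxcl9 lay at 8.52, 8.75, 9.25, 8.84 and 8.47 in Phf2 livers, against 6.52, 7.70, 9.36, 7.46 and 7.49 in GFP livers. GFP liver 3 was above every Phf2 liver, and the other 4 GFP livers were below every Phf2 liver. The log2 fold change was 1.06 ± 0.39 SE (adjusted p = 0.124), and 1.47 without GFP replicate 3 (adjusted p = 0.00219, with 0.00219 to 0.580 over all alternatives). It was 0.76 without GFP replicate 1 and 0.61 without the 3 arrays highest in pancreatic markers. Cxcl10 read 7.14, 7.94, 8.53, 8.06 and 7.15 in Phf2 livers, against 5.70, 6.40, 8.50, 6.14 and 6.65 in GFP livers. The same array stood out, with a log2 fold change of 1.08 ± 0.45 SE over all arrays (adjusted p = 0.173) and of 1.54 without it (adjusted p = 0.00654, with 0.00654 to 0.737 over all alternatives). It was 0.84 without GFP replicate 1 and 0.52 without the 3 arrays highest in pancreatic markers. Cxcl11, the third ligand of this receptor, had a log2 fold change of -0.01 ± 0.10 SE (adjusted p = 0.963), and Cxcr3 one of 0.18 ± 0.12 SE (adjusted p = 0.455). None of the 3 ligands passed limma's test over all arrays (2 at an unadjusted p of 0.05, 0 by the methods' t-test).

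**Figure D2:**
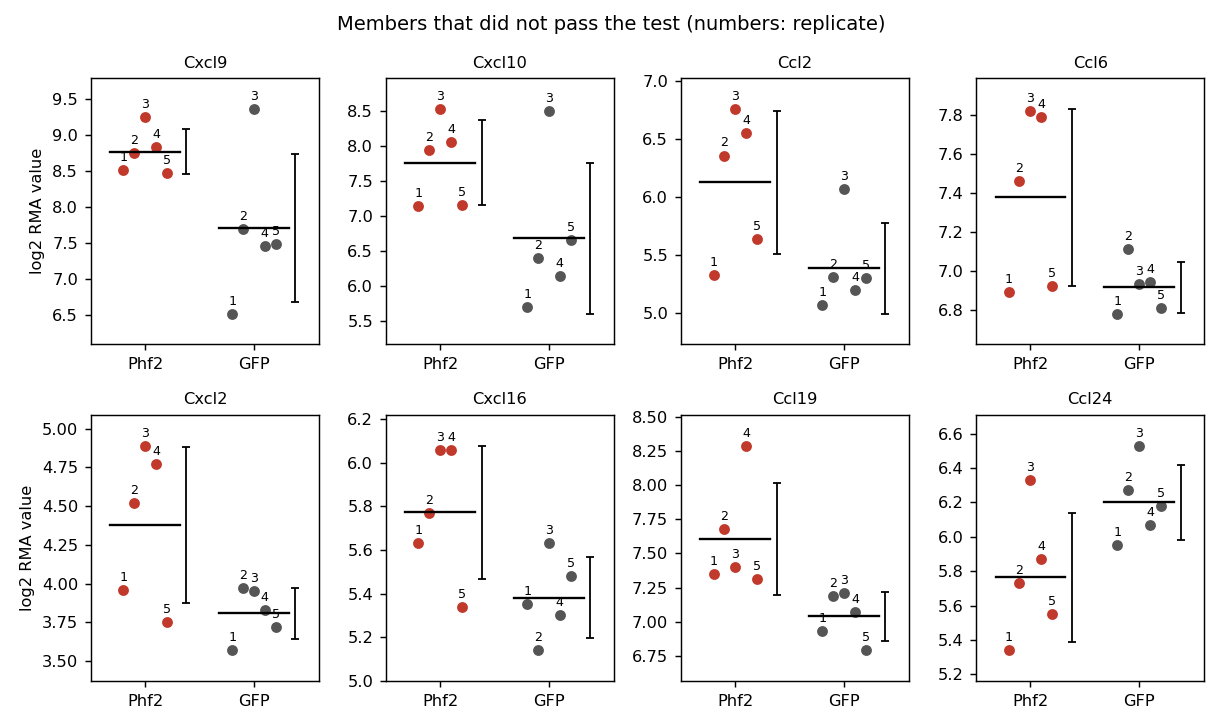
Log2 RMA values (vertical axis) of 8 members with an unadjusted p under 0.05 that did not pass the adjusted threshold, with Phf2 livers in red and GFP livers in grey. Numbers are replicates, lines means and bars the SD (n = 5 each). GFP replicate 3 lies at 9.36 for Cxcl9 and 8.50 for Cxcl10, and Phf2 replicates 2, 3 and 4 lie above Phf2 replicates 1 and 5 for Ccl2, Ccl6, Cxcl2 and Cxcl16.

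The upstream sequences of Cxcl9 and Cxcl10 are shown because the same arrays read high and low for both genes.
Cxcl9, chr5:92328080-92328329, minus strand: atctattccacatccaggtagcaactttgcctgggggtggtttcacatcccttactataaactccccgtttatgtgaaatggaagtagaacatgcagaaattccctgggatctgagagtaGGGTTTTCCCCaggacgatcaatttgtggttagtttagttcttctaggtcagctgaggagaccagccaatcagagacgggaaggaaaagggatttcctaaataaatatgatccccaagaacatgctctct
Cxcl10, chr5:92348890-92349139, minus strand: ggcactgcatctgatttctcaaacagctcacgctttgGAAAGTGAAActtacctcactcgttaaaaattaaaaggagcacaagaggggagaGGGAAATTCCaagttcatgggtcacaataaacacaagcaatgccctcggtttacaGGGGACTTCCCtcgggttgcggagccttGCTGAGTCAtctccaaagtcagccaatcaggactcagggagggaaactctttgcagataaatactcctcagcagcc
The capitals of Cxcl9 are overlapping κB matches from -130 to -120. Those of Cxcl10 are ISRE letters at -213 to -204, κB letters at -159 to -150 and -104 to -94, and ARE letters at -76 to -68.

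Neutrophil-attracting chemokines, which act through Cxcr2, did not pass the test for any of 5 genes (1 at an unadjusted p of 0.05, 0 by the methods' t-test). Cxcl2, made by macrophages early in injury, read 3.96, 4.52, 4.89, 4.77 and 3.75 in Phf2 livers, against 3.57, 3.97, 3.95, 3.83 and 3.72 in GFP livers. Phf2 livers 2, 3 and 4 lay above all GFP livers and Phf2 livers 1 and 5 among them (log2 fold change 0.57 ± 0.20 SE, adjusted p = 0.0938, or 0.0153 without Phf2 replicate 5, with 0.0153 to 0.608 over all alternatives). Cxcl1 had a log2 fold change of 0.23 ± 0.13 SE (adjusted p = 0.358), and Cxcl3, Cxcl5 and Cxcl15 lay between -0.10 and 0.12. The receptors Cxcr1 and Cxcr2 had values of 0.06 and 0.24, with adjusted p of 0.741 and 0.532. Of 11 neutrophil markers, 0 passed limma's test (3 at an unadjusted p of 0.05, 0 by the methods' t-test), and 5 had a positive log2 fold change. Those with the smallest p were S100a9 (0.52 ± 0.22 SE, adjusted p = 0.179) and Csf3r (0.15 ± 0.07 SE, adjusted p = 0.196). Only 1 of the 11 had a mean above the median over all rows, so that most of this list was measured at low signal. The mean of the list lay between 4.43 and 4.61 on Phf2 arrays and between 4.38 and 4.58 on GFP arrays.

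Cxcl13, which draws B cells into follicles through Cxcr5, had the largest fall of the family. It read 4.04, 5.48, 5.11, 6.29 and 5.04 in Phf2 livers, against 6.11, 6.33, 7.14, 6.39 and 7.13 in GFP livers. Phf2 liver 4 reached into the range of the GFP livers, and the other Phf2 livers were below it. The mean was 5.19 ± 0.81 in Phf2 livers and 6.62 ± 0.48 in GFP livers (SD, n = 5 each), a log2 fold change of -1.43 ± 0.34 SE (limma adjusted p = 0.0202). This call was lost without GFP replicate 5 (adjusted p = 0.0520), by the methods' t-test (0.0944), with an intensity trend and robust prior (0.0671), with adjustment over all rows (0.0534) and without the 3 arrays highest in pancreatic markers (0.0860), and the adjusted p was at least 0.00503 over all alternatives. Cxcr5 had a log2 fold change of -0.19 ± 0.12 SE (adjusted p = 0.422), and of 6 B cell markers 0 passed limma's test (1 at an unadjusted p of 0.05, 0 by the methods' t-test). Their mean lay between 4.57 and 5.09 on Phf2 arrays and between 4.46 and 4.68 on GFP arrays. Only 2 of these 6 markers had a mean above the median over all rows, and Cxcr5 did not. Most of these genes were therefore measured at low signal, where a difference could be missed.

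Cxcl12 and its receptor Cxcr4 differed in opposite directions. Cxcl12, which stromal and endothelial cells make and which retains leukocytes and progenitor cells in tissue, read 8.34, 8.13, 8.02, 7.87 and 8.35 in Phf2 livers, against 8.60, 8.76, 9.04, 8.54 and 8.62 in GFP livers. The groups did not overlap, and Cxcl12 fell by 0.57 ± 0.11 SE in log2 units (adjusted p = 0.00757). Cxcr4, which most leukocytes carry, read 6.98, 7.24, 7.48, 7.74 and 6.51 in Phf2 livers, against 6.34, 6.27, 6.38, 6.15 and 6.13 in GFP livers. Here too the groups were apart, although Phf2 liver 5 lay close to the GFP livers, and Cxcr4 rose 1.91-fold (log2 fold change 0.94 ± 0.18 SE, adjusted p = 0.00617). Phf2 livers 3 and 4 had the highest Cxcr4 and the lowest Cxcl12. Ackr3, an atypical receptor that removes Cxcl12, had a log2 fold change of 0.46 ± 0.17 SE (adjusted p = 0.139), with Phf2 liver 3 at 5.80 and the other Phf2 livers at 5.09 or below. It passed without Phf2 replicate 5 (adjusted p = 0.0493, with 0.0493 to 0.261 over all alternatives).

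The upstream sequences of Cxcl12 and Cxcl13 are shown as those of the called CXC ligands, both of which were lower in Phf2 livers.
Cxcl12, chr6:117168285-117168534, plus strand: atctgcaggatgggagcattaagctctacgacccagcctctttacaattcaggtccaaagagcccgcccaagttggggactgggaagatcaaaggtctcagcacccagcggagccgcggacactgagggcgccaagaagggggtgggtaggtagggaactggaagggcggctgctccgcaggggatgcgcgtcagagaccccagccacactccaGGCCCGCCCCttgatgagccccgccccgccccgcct
Cxcl13, chr5:95956689-95956938, plus strand: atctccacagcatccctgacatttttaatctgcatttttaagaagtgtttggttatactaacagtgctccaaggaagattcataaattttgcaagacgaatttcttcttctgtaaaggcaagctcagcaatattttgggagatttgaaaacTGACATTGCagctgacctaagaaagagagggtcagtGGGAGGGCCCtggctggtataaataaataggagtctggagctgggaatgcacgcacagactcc
Cxcl12 held 1 κB match, at -36 to -27, and Cxcl13 held ARE letters at -99 to -91 and κB letters at -63 to -54 on both strands.

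The other called receptors were Cx3cr1 and Ccr2. Cx3cr1, a receptor of patrolling monocytes, of tissue macrophages and of cytotoxic lymphocytes, read 6.50, 6.88, 6.58, 6.57 and 6.24 in Phf2 livers, against 5.76, 5.81, 6.05, 5.63 and 6.09 in GFP livers. The groups did not overlap, and Cx3cr1 rose 1.61-fold (log2 fold change 0.69 ± 0.12 SE, adjusted p = 0.00295). Its ligand Cx3cl1, a membrane-bound chemokine of endothelium, had a log2 fold change of 0.07 ± 0.13 SE (adjusted p = 0.806). Ccr2, the receptor that inflammatory monocytes use to leave the bone marrow, read 4.98, 5.34, 5.70, 5.68 and 4.93 in Phf2 livers, against 4.40, 4.72, 4.94, 4.63 and 4.50 in GFP livers. Phf2 livers 1 to 4 were above all GFP livers, and Phf2 liver 5 lay just under GFP liver 3. Ccr2 rose 1.61-fold (log2 fold change 0.69 ± 0.16 SE, adjusted p = 0.0166), and by the methods' t-test its adjusted p was 0.0742 (0.00423 to 0.210 over all alternatives). Every GFP value of Ccr2 and its mean over the arrays lay below 5.12, the median over all rows, so that the size of this fold is less certain. The ligands of Ccr2 other than Ccl2, which are Ccl7 and Ccl12, had log2 fold changes of 0.10 each, with adjusted p of 0.738 and 0.670.
Cx3cr1, chr9:120068297-120068546, minus strand: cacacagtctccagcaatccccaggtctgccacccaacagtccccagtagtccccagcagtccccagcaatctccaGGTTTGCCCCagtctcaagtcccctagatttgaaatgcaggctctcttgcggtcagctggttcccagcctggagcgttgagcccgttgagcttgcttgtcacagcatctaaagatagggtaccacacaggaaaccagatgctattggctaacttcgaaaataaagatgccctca
This upstream sequence of Cx3cr1 is shown as that of a called receptor, and it held 1 κB match, at -174 to -165.

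**Figure D3:**
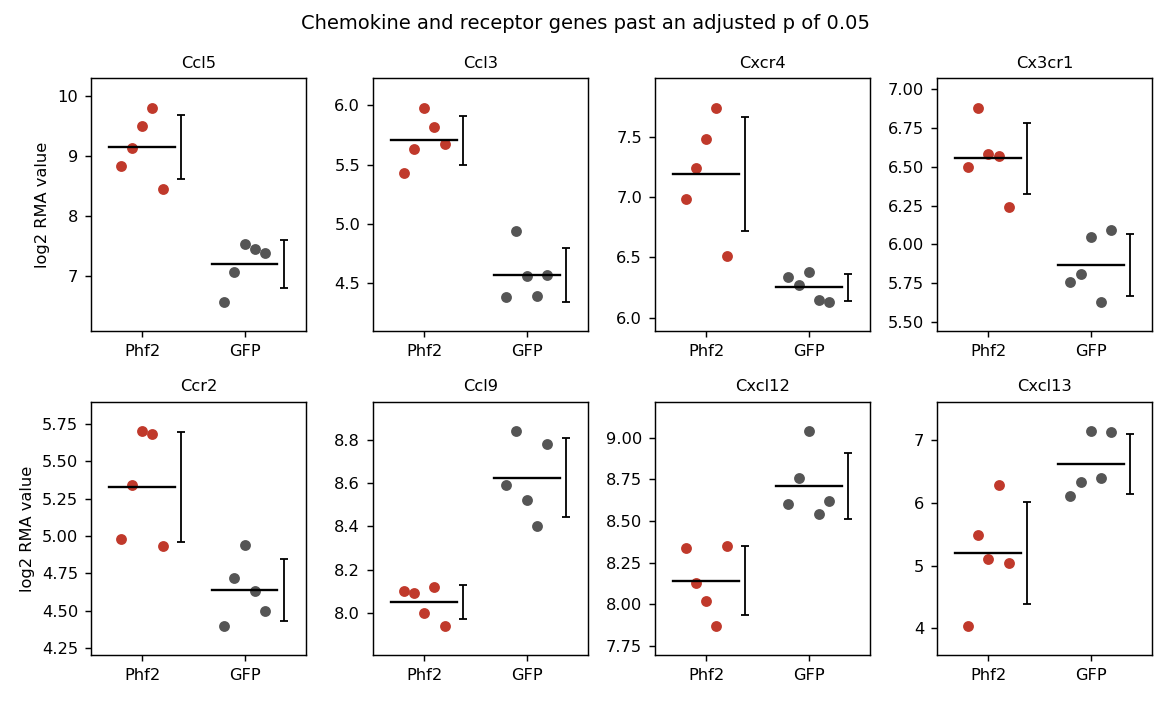
Log2 RMA values (vertical axis, a separate scale in each panel) of the 8 called members, with the 5 Phf2 livers in red on the left and the 5 GFP livers in grey on the right of each panel. Lines are means and bars the SD. The groups overlap for Ccr2, with the lowest Phf2 liver at 4.93 and the highest GFP liver at 4.94, and for Cxcl13.

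The other CC receptors did not pass the test. Ccr1, a receptor of Ccl3, Ccl5, Ccl6 and Ccl9, lay between 3.18 and 3.27 in Phf2 livers and between 3.12 and 3.28 in GFP livers (log2 fold change 0.03 ± 0.06 SE, adjusted p = 0.785). Ccr3, which also binds Ccl5 and Ccl24, had a log2 fold change of 0.10 ± 0.09 SE (adjusted p = 0.579). Of 10 CC receptors, 1 was called and 8 had a mean below the median over all rows. Ccr1l1, Ccr4, Ccr6, Ccr8, Ccr9 and Ccr10 had log2 fold changes between -0.06 and 0.20. Of 8 receptors of the CXC, XC and CX3C classes, Cxcr4 and Cx3cr1 were called (25.0%, against 9.67% of all genes). The other 6 had log2 fold changes between -0.19 and 0.24. With only 8 genes, this share is a description and was not tested. None of the 4 atypical receptors passed limma's test (2 at an unadjusted p of 0.05, 0 by the methods' t-test). Ackr1, Ackr2 and Ackr4 had log2 fold changes of -0.20, -0.23 and -0.24.

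Chemokines of lymphoid tissue and mucosa were also not called for any of 6 genes (2 at an unadjusted p of 0.05, 0 by the methods' t-test). Ccl19, which guides T cells and dendritic cells through Ccr7, came closest. It read 7.35, 7.68, 7.40, 8.29 and 7.31 in Phf2 livers, against 6.93, 7.19, 7.21, 7.07 and 6.79 in GFP livers. Every Phf2 liver was above every GFP liver, with Phf2 liver 4 well above the others, and the log2 fold change was 0.57 ± 0.17 SE (adjusted p = 0.0530). The table holds 5 rows for Ccl19, a gene with near-identical copies, with log2 fold changes between 0.57 and 0.85, and the mean of these rows passed the test (0.78, adjusted p = 0.0208, with 0.0208 to 0.235 over all alternatives). The row used passed without Phf2 replicate 1, 4 or 5, at adjusted p = 0.0467, 0.0471 and 0.0359. Ccr7 had a log2 fold change of 0.16 ± 0.14 SE (adjusted p = 0.574). Ackr4, which removes Ccl19, read 5.47, 5.35, 5.22, 4.91 and 5.33 in Phf2 livers, against 5.61, 5.33, 5.62, 5.57 and 5.36 in GFP livers, with an adjusted p of 0.182. Ccl17, Ccl20, Ccl22, Ccl25 and Ccl28 had log2 fold changes between -0.04 and 0.21.

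The remaining ligands were not called either. Cxcl16, a membrane-bound ligand of Cxcr6 on NKT and T cells of the liver, read 5.63, 5.77, 6.06, 6.06 and 5.34 in Phf2 livers, against 5.35, 5.14, 5.63, 5.30 and 5.48 in GFP livers. Phf2 liver 5 was among the GFP livers, GFP liver 3 was level with Phf2 liver 1, and the log2 fold change of 0.39 ± 0.14 SE had an adjusted p of 0.105, and of 0.0191 without Phf2 replicate 5 (0.0191 to 0.528 over all alternatives). Cxcr6 had a log2 fold change of 0.09 ± 0.15 SE (adjusted p = 0.780). Xcl1, which NK cells and CD8 T cells release to attract dendritic cells, had a value of 0.21 ± 0.09 SE (adjusted p = 0.207), and passed without GFP replicate 3 (adjusted p = 0.0400, with 0.0400 to 0.743 over all alternatives). Its receptor Xcr1 also had a value of 0.21 ± 0.15 SE (adjusted p = 0.471). Cxcl14 and Cxcl17 had values of 0.24 and 0.03.

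Of 31 other genes of the chemokine pathway, 3 passed as higher and 1 as lower while 27 were not called, and the median log2 fold change was 0.15. The share called was 12.9%, close to the 9.67% of all genes, and 2 of the 31 were called by the methods' t-test and 5 with an intensity trend. Cd74, the invariant chain of MHC class II and a receptor for the cytokine Mif, had a log2 fold change of 1.27 ± 0.26 SE (adjusted p = 0.00898). Rgs1, which shortens the signal of chemokine receptors in lymphocytes, rose by 1.23 ± 0.22 SE (adjusted p = 0.00354). Dpp4, a protease that trims chemokines such as Cxcl12 and Cxcl10, fell by 0.43 ± 0.07 SE (adjusted p = 0.00187). The third higher gene, named after its value was seen, was Dock2, which activates Rac in migrating lymphocytes (0.56 ± 0.15 SE, adjusted p = 0.0307). Of 23 cytokines, receptors and transcription factors that induce chemokines, 0 passed limma's test and 0 passed by the methods' t-test. An unadjusted p under 0.05 was found for 8 of the 23, and for 22.2% of all genes. Those with the smallest p were the receptor Tlr2 (0.41 ± 0.13 SE, adjusted p = 0.0835) and the NF-κB subunit Relb (0.21 ± 0.07 SE, adjusted p = 0.0862). Ifng, the cytokine that induces Cxcl9 and Cxcl10, was named for those genes and after its value was seen, and had a log2 fold change of 0.00 ± 0.08 SE (adjusted p = 0.985).

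Some markers of the cells that make or carry these genes also differed between the groups, and their part in the results above was not tested. Of all genes, 5.43% were called higher and 4.24% lower, and the counts below are to be read beside these shares. In whole liver, a change in the number of cells of a type and a change in RNA per cell cannot be told apart. Of 19 T and NK cell markers 8 were higher, where 5.43% of all genes were (5 of the 19 by the methods' t-test and 6 with an intensity trend), among them Cd3g (log2 fold change 1.5) and Gzma (1.24), and the mean of the list lay between 5.12 and 5.62 on Phf2 arrays and between 4.72 and 4.95 on GFP arrays. Of 11 monocyte and macrophage markers 6 were higher, led by Ms4a7 (1.57) and Cd52 (1.01), with a mean between 6.66 and 7.25 on Phf2 arrays and between 6.14 and 6.77 on GFP arrays (1 of the 11 was called by the methods' t-test and 4 with an intensity trend). The highest of the GFP arrays for this list was GFP replicate 3, and the lowest of the Phf2 arrays were Phf2 replicates 5 and 1. Of 8 Kupffer cell markers 4 were lower, with Cd163 (-1.89) and Timd4 (-1.59) at the head, and Slc40a1 was higher (0.35), with a mean between 7.19 and 7.45 on Phf2 arrays and between 7.58 and 8.13 on GFP arrays (3 of the 8 were called by the methods' t-test and 5 with an intensity trend). Of 8 sinusoidal endothelial markers 1, Lyve1 (0.51), was higher, and the mean lay between 7.23 and 7.48 on Phf2 arrays and between 7.25 and 7.34 on GFP arrays. The single higher gene of 8 stellate cell markers was Hgf (0.49), with a mean between 6.75 and 7.25 on Phf2 arrays and between 6.62 and 6.81 on GFP arrays, and that of 8 dendritic cell markers was Clec9a (0.52), with a mean between 4.76 and 4.87 on Phf2 arrays and between 4.64 and 4.77 on GFP arrays. In each of the endothelial, stellate and dendritic cell lists the share called was 12.5%, close to the 9.67% of all genes. The methods' t-test called 0 genes of these lists (1, 5 and 2 had an unadjusted p under 0.05). Of 7 hepatocyte markers 3 were lower, with Tat (-0.83) and Cps1 (-0.57) at the head, and the mean lay between 11.88 and 12.28 on Phf2 arrays and between 12.25 and 12.38 on GFP arrays (1 of the 7 was called by the methods' t-test and 1 with an intensity trend).

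**Figure D4:**
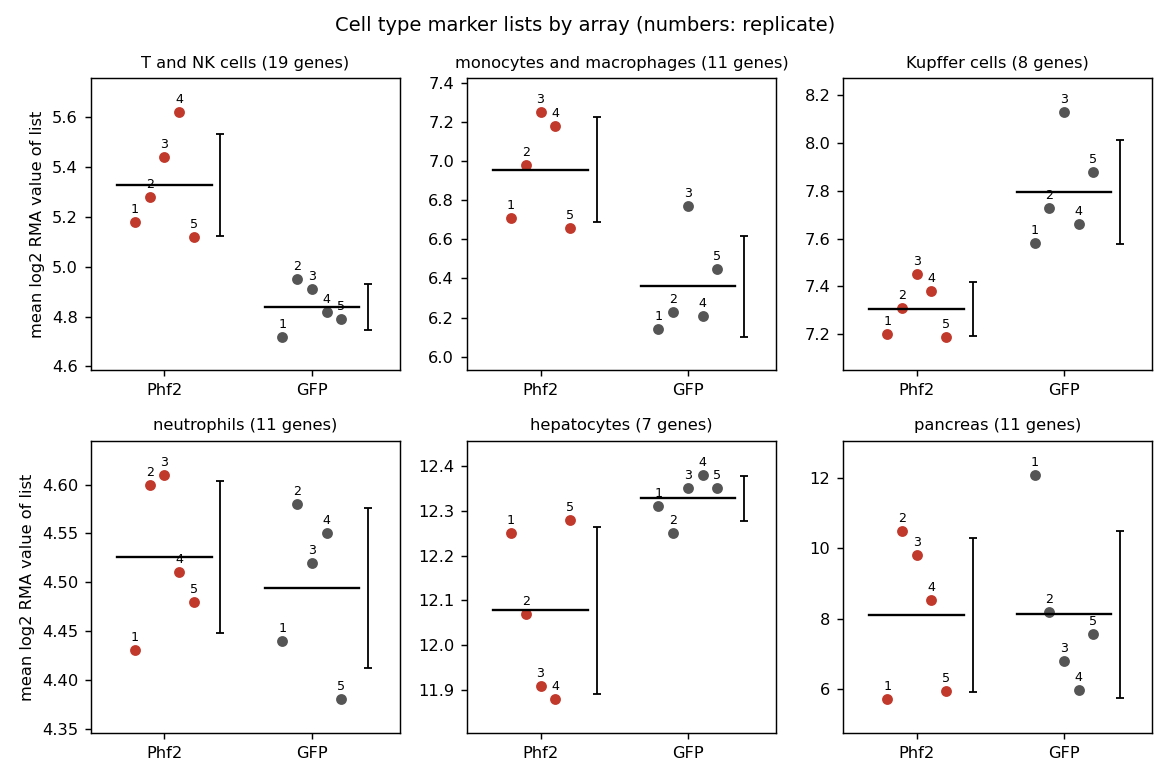
Mean log2 RMA value of 6 cell type marker lists (vertical axis, a separate scale in each panel) on the 5 Phf2 arrays in red and the 5 GFP arrays in grey. Numbers are replicates, lines means and bars the SD. The groups do not overlap for T and NK cells or for Kupffer cells, and the pancreatic list runs from 5.72 to 12.08.

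The Phf2 livers were not uniform. Phf2 replicate 3 was the highest Phf2 array for 19 of the 56 members (33.9%, against 23.9% of all genes) and Phf2 replicate 4 for 16 (28.6%, against 18.9%), while Phf2 replicate 1 was the lowest for 18 (32.1%, against 20%) and Phf2 replicate 5 for 16 (28.6%, against 18.3%). Among GFP livers, replicate 3 was the highest for 22 members (39.3%, against 17.6% of all genes) and replicate 1 the lowest for 20 (35.7%, against 18.0%). Phf2 replicates 2, 3 and 4 were also the Phf2 arrays with the most pancreatic transcripts, whereas GFP replicate 1, with the highest pancreatic level of all arrays, was low in chemokines. With the pancreatic level as a covariate, 5 members were higher and 3 lower. Without the 3 arrays highest in pancreatic markers (Phf2 replicates 2 and 3 and GFP replicate 1), which left 3 Phf2 and 4 GFP arrays, Ccl5 and Ccl3 were still higher, Ccl9 was still lower and Ccl24 was lower (adjusted p = 0.0341), and the calls of Cxcr4, Cx3cr1, Ccr2, Cxcl12 and Cxcl13 were lost. Their log2 fold changes there were 0.85, 0.54, 0.50, -0.55 and -1.63. The number of higher members ran to 9 without GFP replicate 3, 8 without Phf2 replicate 1 and 10 without Phf2 replicate 5. The share of all genes called in these refits is not given here, so that these counts cannot be read as particular to the family.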

How the data were processed

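Total liver RNA of 10 mice was hybridised with 1 array per mouse. The authors normalized the arrays with RMA and ran statistics in Partek, and deposited log2 values for 35556 rows. The sources used here name neither tool versions nor a genome build. A human array is named in the methods, but the row numbers and gene symbols belong to a mouse Gene ST array. Of the rows, 21789 had 1 symbol, 1621 several and 12146 none, and 21698 of the 21789 were matched by gene number to GRCm38.p6 for names. The row with the highest mean stood for a gene, which left 19938 genes.

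The Phf2 and GFP arrays were set against each other by lmFit and eBayes of limma 3.58.1, run in R 4.3.3 without covariates, and p-values were adjusted by Benjamini-Hochberg across the 19938 genes. A two-sided exact permutation test over the 252 splits of the arrays was used for single members. The members, gene lists and motifs were chosen with earlier results of these data known, so that counts over a list are descriptions. Every member could be named, with values per array for those called or without overlap and for others near the threshold. From other lists up to 2 called genes in each direction were named, or the 2 with the smallest p. Alternatives tried were array weights, the t-test of the methods, a prior with intensity trend and robust fit, removal of dim genes, other scalings, the mean of a gene's rows, adjustment over all rows, the replicate number as a block, a pancreatic covariate and leaving out each array. On simulated data for Phf2 against GFP arrays (19938 genes, with 50 altered per fold size), the test found 45 of 50 at 1.5-fold, 46 at 2-fold, 50 at 4-fold and 49 at 8-fold, with 10 false calls. The simulated noise was normal and drawn independently for each gene. Differences shared by many genes of an array, as seen in the pancreatic transcripts, were not part of it, and the figures do not cover them. The number of arrays limits the precision.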

Additional observations from a re-analysis of the deposited data

Results flagged for a closer look

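Of the 112 groups of 5 arrays (56 genes in Phf2 and in GFP livers), 7 held an array that stood far from the other 4 by Dixon's criterion, which chance alone meets in about 1 in 20 groups. Among Phf2 arrays, replicate 3 stood above the others for Ccl8 at 4.17, and replicate 4 for Ccl22 at 4.52 and for Ccr6 at 4.81. Among GFP arrays, replicate 3 stood above the others for Ccl2 at 6.07, and replicate 4 for Ccl11 at 6.13, Ccl12 at 4.07 and Ccl25 at 7.43. None of these 7 genes passed the adjusted threshold between the groups over all arrays (2 of them, Ccl2 and Ccl22, had an unadjusted p under 0.05, and 0 passed by the methods' t-test).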

How the results depend on the processing

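The calls of Ccl3, Ccl5, Ccl9, Cx3cr1, Cxcr4 and Cxcl12 held under the 20 alternatives described with the methods, and no direction of the 8 called members changed under any of them. By the methods' t-test Ccr2 (0.69, adjusted p = 0.0742) and Cxcl13 (-1.43, 0.0944) did not pass. Cxcl13 was also lost with an intensity trend and a robust prior (-1.43, 0.0671) and with adjustment over all rows (-1.43, 0.0534), and its log2 fold change lay between -1.70 and -1.14 when single arrays were left out. The filter on dim genes removed 27 members, Ccr2 among them. Ccl3 passed this filter only through its Phf2 livers, since every GFP liver lay below the cut of 5.12. Its call under that filter therefore adds no support. Leaving out single arrays gave 5 to 10 higher members, 2 to 4 lower members and 8 to 13 members past 1.5-fold and an unadjusted p of 0.05. These counts are given without the share of all genes called in the same refit, and so describe the members only. An alternative chosen after seeing the data, which left out the 3 arrays highest in pancreatic markers, gave 2 higher members, with Cx3cr1 (0.54, 0.0568), Cxcr4 (0.85, 0.0909), Cxcl12 (-0.55, 0.0928), Ccr2 (0.50, 0.210) and Cxcl13 (-1.63, 0.0860) no longer past the threshold, on 7 arrays.

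Replicate numbers are shared by the groups but name different mice. The deviations of same-numbered arrays correlated at -0.291 to -0.042, and 0 of 10 arrays correlated best with their own number, so that the numbers do not pair the samples. With the replicate block 10 members were higher and 4 lower, with Cxcl9 (adjusted p = 0.0369) and Cxcl10 (0.0372) among the higher ones. The share of all genes called with this block is not given here either. Centring each array on its median or a further quantile normalization gave 5 higher and 3 lower members as before, while all called genes divided into 829 higher and 959 lower under centring and 1024 and 1066 under quantile normalization, against 1083 and 846 in the values as deposited.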
